A study of Homo sapiens with 6 samples.

Results

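Expression of fibroblast growth factor 2 (FGF2), of NUDT6, the gene that overlaps it on the opposite strand, and of the FGF receptors was examined in glioma cells carrying a decoy for miR-10b. The set held 9 genes of the 19775 that had a probe set with a single symbol: the ligands FGF2, FGF1 and FGF5, the antisense gene NUDT6, the receptors FGFR1 to FGFR4 and the receptor-like FGFRL1. They were picked by symbol and covered 36 of 41091 such probe sets. Each gene was represented by its probe set with the highest mean over all 6 arrays, and its other probe sets served as checks. That mean takes no account of the groups, and it is given below as a description only.

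All RNA came from U87-2M1, an invasive subline that was raised from the human glioma line U87 through a lung metastasis assay in animals and then returned to culture. Every culture was at passage 4, kept in hypoxia in serum-containing medium, and had received a baculoviral vector (baculoviruses infect insects and are used to deliver genes to mammalian cells). In 3 samples the vector carried a control decoy, and in the other 3 it carried a decoy for miR-10b, a transcript meant to bind that microRNA and hold it away from its targets. The comparison asks which transcripts differ with the miR-10b decoy. The labels give neither the promoter that drives the decoy nor the time after transduction, no untransduced cells were analysed here, and miR-10b itself was not measured on these arrays. Whether the replicates were separate cultures is not stated in the labels. The p-values therefore cover only the variation among these 6 samples, which could be technical.

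FGFs are secreted or exported proteins that bind receptor tyrosine kinases together with heparan sulfate chains on the cell surface. Receptor activation runs through adaptor proteins to RAS and the kinase ERK, which in turn raises its own inhibitors of the Sprouty and DUSP families. FGF2 is a mitogen and angiogenic factor that leaves cells without a signal peptide, and in glioma it is known for sustaining growth. NUDT6 encodes a Nudix hydrolase, and its transcript runs antisense to the 3' end of FGF2.

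The windows at the starts of both genes of this sense and antisense pair are shown here because FGF2 was the gene of the set that moved. Each spans 250 bases before and 50 bases after a RefSeq transcript start (assembly GRCh38.p14), written 5′ to 3′ on the strand of its gene. Capitals mark matches to the GC box GGGCGG on either strand. The FGF2 window lies at chr4:122826581-122826880 on the plus strand, and the NUDT6 window, the first of 2 listed for that gene, at chr4:122922919-122923218 on the minus strand.
FGF2: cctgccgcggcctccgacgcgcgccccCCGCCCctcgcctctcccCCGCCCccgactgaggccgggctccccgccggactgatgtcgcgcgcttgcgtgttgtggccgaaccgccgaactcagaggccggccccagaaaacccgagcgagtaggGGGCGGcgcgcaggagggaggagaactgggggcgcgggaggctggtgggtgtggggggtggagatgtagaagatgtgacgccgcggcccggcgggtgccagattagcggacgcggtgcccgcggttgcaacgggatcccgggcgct
NUDT6: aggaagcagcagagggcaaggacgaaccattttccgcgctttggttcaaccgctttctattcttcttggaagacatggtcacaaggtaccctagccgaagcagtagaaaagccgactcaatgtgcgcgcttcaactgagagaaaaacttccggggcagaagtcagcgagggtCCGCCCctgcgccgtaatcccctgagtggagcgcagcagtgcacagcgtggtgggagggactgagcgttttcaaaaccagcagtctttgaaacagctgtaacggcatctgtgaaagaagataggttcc
The FGF2 window was 74.7% G or C and held 3 GC boxes, the NUDT6 window 53.7% with 1 GC box, against a median of 58.7% over all 35116 windows of this length, of which 45.0% held at least 1 GC box. Neither window held a TATA box (TATAAA, either strand, in 11.5% of all windows) or the EGR core (GCGNGGGCG, either strand, in 9.43%; a match can overlap a GC box). Such matches describe letters only. The NUDT6 window shared 209 bases with that of AFG2A, a AAA ATPase gene that starts beside NUDT6 on the other strand, whereas FGF2 starts apart from both.

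The deposited values were linear MAS5 signals. Control replicate 3 was the brightest array, with a 2% trimmed mean of 192 against 155 to 163 on the other 5, so signals were quantile normalised before testing. Signals below are these normalised values. Differences are on the scale of log2(signal + 7), which understates the change of dim genes, and were tested with limma over 13842 genes whose mean signal lay at or above a filter level of 15.6, with Benjamini-Hochberg adjustment over all of them and a threshold of 0.05. In the miR-10b decoy arrays 2304 of these genes (16.6%) were higher and 2392 (17.3%) lower, or 4696 in all (33.9%). The split moved with the scaling, higher genes making up 49.1% of calls here. With the values as deposited 26.4% of genes passed, 7.9% being higher and 18.5% lower, so that 29.9% of calls were higher. After centring each array on its median 33.2% passed, 20.7% higher and 12.6% lower, and 62.2% of calls were higher. As a measure of RNA integrity, the ratio of actin signals from the 3' and 5' probe sets lay between 5.27 and 6.22 in controls and between 7.36 and 10.6 with the miR-10b decoy (exact permutation p = 0.1, two-sided, the smallest this design allows), while that of GAPDH lay between 0.931 and 0.967 in controls and between 0.934 and 0.948 with the decoy. Its part in the differences below was not tested.

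FGF2 was the 1 gene of the set that passed. Its normalised signal was 817, 871 and 932 on the control arrays and 3454, 3537 and 4461 on the miR-10b decoy arrays. All 3 decoy arrays lay far above all 3 control arrays, and group means were 873 ± 57.5 and 3817 ± 559 (SD, n = 3). The log2 difference was 2.11 (SE 0.09), a 4.32-fold rise with a 95% interval of 3.77 to 4.95-fold (limma, adjusted p = 4.6e-08). This was the 19th largest rise among the 13842 tested genes, and FGF2 stood at percentile 96.0 of mean signal over all genes. The set was proposed with earlier results of these data known, so the p places FGF2 within the fit over all genes and is not independent evidence. The other FGF2 probe set, 204421_s_at, read 393, 493 and 502 in controls and 2105, 2106 and 2658 with the miR-10b decoy. That was a 4.89-fold rise, passing in a fit of every probe set (limma, adjusted p = 2.36e-05), in which 14.8% of 41091 probe sets passed and 7.39% were higher. The _s_at ending of both FGF2 probe sets means that their probes can match more than one transcript. In such bulk RNA, more cells of one kind and more RNA per cell cannot be told apart.

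**Figure D1:**
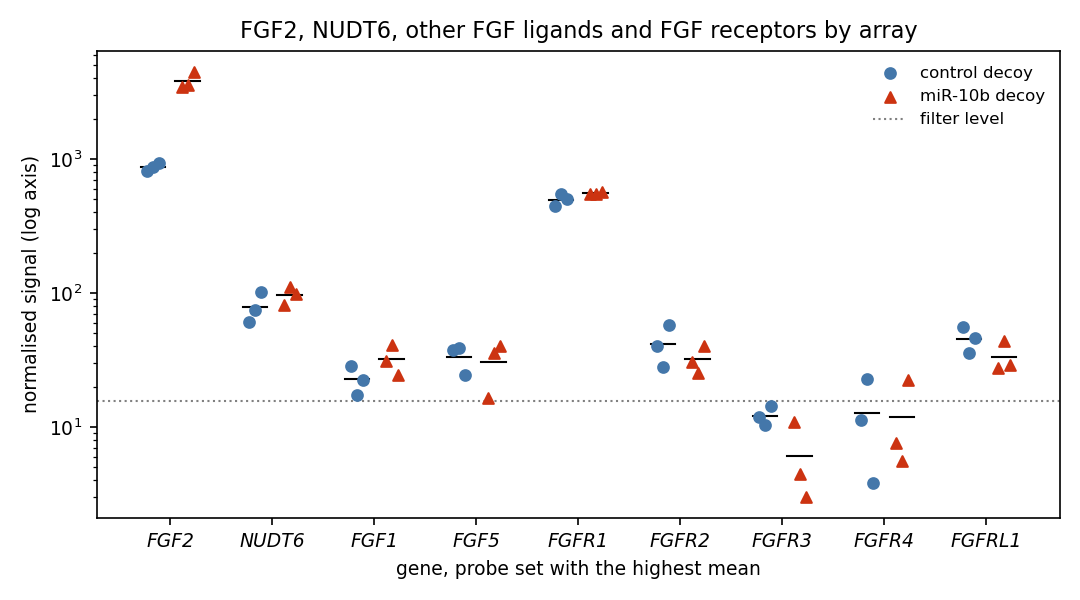
Normalised signal on a log axis for the 9 genes, each by its probe set with the highest mean. Blue circles are the 3 control decoy arrays, red triangles the 3 miR-10b decoy arrays, black bars group means and the dotted line the filter level of 15.6. FGF2 is the one gene whose groups stand apart, at 817 to 932 against 3454 to 4461.

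The antisense gene NUDT6 did not pass. Its signal was 60.8, 74.6 and 101 on the control arrays and 82.1, 111 and 97.7 on the miR-10b decoy arrays, so the groups overlapped. The log2 difference was 0.29 (SE 0.18; limma, adjusted p = 0.246), with a 95% interval from 0.929 to 1.62-fold. The other NUDT6 probe set, 220183_s_at, had 63.7, 71.2 and 74.1 in controls and 94.8, 78.1 and 99.9 with the miR-10b decoy. Those groups did not overlap, yet its 1.27-fold difference did not pass (limma over all probe sets, adjusted p = 0.18). For comparison, the arrays of the groups did not overlap for 46.4% of all tested genes, 22.4% with the decoy arrays above and 24% below. Taken within each array, the log2 change of FGF2 exceeded that of NUDT6 by 1.82, a 3.52-fold difference between the changes (exact permutation p = 0.1, two-sided, the smallest 3 against 3 arrays can give). The within-array difference had an SD of 0.25 in controls and 0.27 with the miR-10b decoy (n = 3).

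Next to the pair, AFG2A was lower with the miR-10b decoy. Its signal was 150, 173 and 141 in controls and 111, 120 and 103 with the miR-10b decoy, a log2 difference of -0.45 (SE 0.12; limma, adjusted p = 0.0126). The groups did not overlap, but the call ended without moderation (adjusted p = 0.0555), with the mean of all its probe sets (adjusted p = 0.372) and when control replicate 2 was left out (adjusted p = 0.0633). Its other probe sets, 242251_at and 241546_at, had folds of 1.05 and 0.891 that did not pass. SPRY1, which encodes a Sprouty inhibitor of FGF signalling and lies further along chromosome 4, had a log2 difference of -0.26 (SE 0.22; limma, adjusted p = 0.412) with overlapping groups, and its 2 probe sets differed in sign.

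Among the other ligands of the set, FGF1, which binds all FGF receptors, read little above the filter level. Its signal was 28.5, 17.3 and 22.3 in controls and 31.3, 41.3 and 24.3 with the miR-10b decoy, and the groups overlapped (log2 difference 0.40, SE 0.27; limma, adjusted p = 0.291). The other FGF1 probe sets averaged under the filter level, and 1 of the 3 had the opposite sign. FGF5, a secreted ligand known from control of the hair cycle, had 37.4, 38.6 and 24.3 in controls and 16.6, 35.4 and 40.4 with the miR-10b decoy (log2 difference -0.14, SE 0.30; limma, adjusted p = 0.757). Its 3 probe sets all averaged above the filter level and all had values below 0, from -0.58 to -0.14, with 0 passing limma's test at an adjusted or an unadjusted p under 0.05. The 95% intervals ran from 0.874 to 1.99-fold for FGF1 and from 0.577 to 1.43-fold for FGF5.

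The results for FGFR1 differed between its probe sets. The brightest one, 226705_at, lay well above the filter level and read 443, 551 and 503 in controls and 551, 550 and 567 with the miR-10b decoy. The groups overlapped, and the log2 difference of 0.16 (SE 0.085; limma, adjusted p = 0.172) did not pass, with a 95% interval from 0.983 to 1.27-fold. Centred on array medians it did pass, at 0.26 (adjusted p = 0.0442). The probe set 211535_s_at, nearly as bright, had 454, 421 and 354 in controls and 602, 567 and 580 with the miR-10b decoy, a 1.42-fold rise (limma over all probe sets, adjusted p = 0.00604). The probe sets 215404_x_at and 222164_at rose 1.35-fold and 1.38-fold (adjusted p = 0.00731 and 0.0172), again with all decoy arrays above all controls. Thus 3 of the 7 FGFR1 probe sets were higher by limma and 0 lower, the same counts as at an unadjusted p under 0.05, and 2 of the other 4 had values below 0, down to -0.21 for 207937_x_at. Which parts or forms of the transcript each probe set reports was not examined here, and the cause of their difference was not tested.

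The remaining receptors read near or under the filter level. FGFR2 read 40.6, 28.0 and 57.3 in controls and 30.8, 25.5 and 40.3 with the miR-10b decoy (log2 difference -0.29, SE 0.26; limma, adjusted p = 0.429), from the 1 of its 11 probe sets that averaged above the filter level. FGFRL1, which lacks a kinase domain, read 55.7, 35.6 and 46.1 in controls and 27.7, 43.7 and 28.9 with the miR-10b decoy (log2 difference -0.39, SE 0.23; limma, adjusted p = 0.229). Groups overlapped for both, and the 95% intervals ran from 0.548 to 1.22-fold and from 0.535 to 1.09-fold. FGFR3 and FGFR4 averaged under the filter level and were not tested, with 11.9, 10.4 and 14.3 against 10.8, 4.45 and 3.03 for FGFR3, and 11.3, 23.0 and 3.85 against 7.65, 5.63 and 22.5 for FGFR4. In all, 7 of the 9 genes were tested and 1 passed, where 33.9% of all genes did, and so small a set allows no reading of that share.

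**Figure D2:**
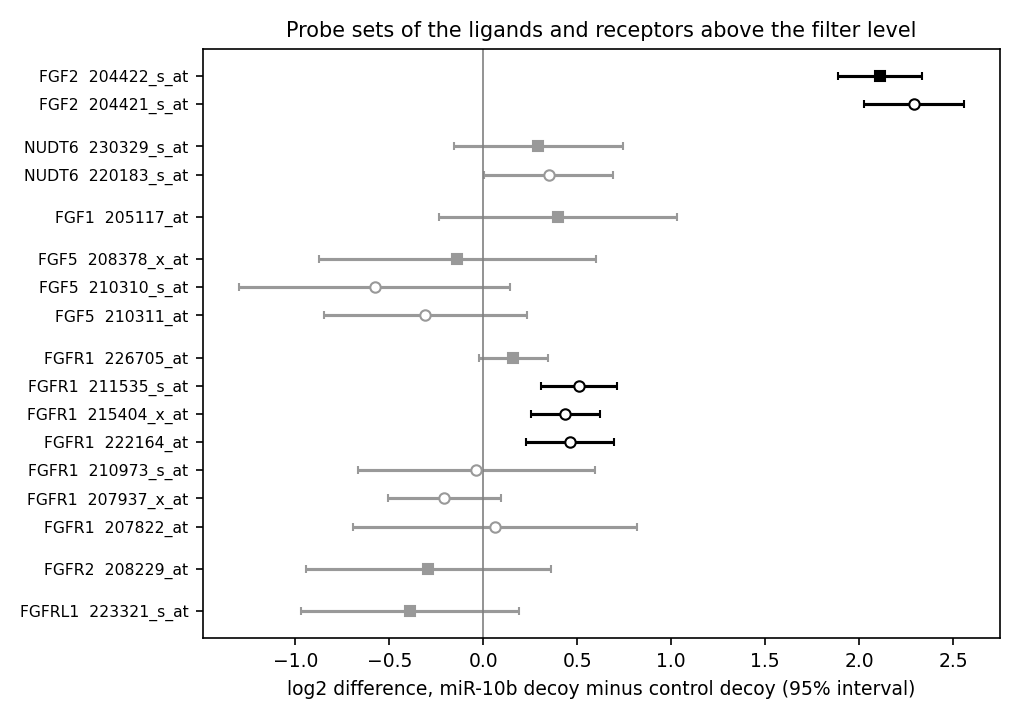
Log2 difference with 95% interval for each probe set of the set that averaged above the filter level, from a fit of every probe set. Squares are the probe sets that stand for their gene, circles the others, and black marks those that passed. Both FGF2 probe sets lie above 2 on the log2 scale, and 3 of 7 FGFR1 probe sets passed, although the chosen one did not.

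Pooled over the lists, other genes of FGF signalling passed about as often as all genes, in both directions. Single lists differed, as given below. Over 6 lists of ligands, co-receptors, heparan sulfate enzymes, transducers, feedback inhibitors and target genes, 84 of 116 genes were tested, of which 15 were higher and 15 lower (35.7% passing, against 33.9% of all genes). The balance moved with the scaling as it did for all genes, with 8 higher and 15 lower for the values as deposited and 22 higher and 12 lower after centring. Of the 30 passing genes 1, SDC3, had a group mean under the filter level. Up to 4 passing genes of each list are named by a rule on the smallest p, and others where stated.

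Of 10 other FGF ligands tested, FGF18 was higher and FGF13 lower (20.0% passing, against 33.9% of all genes). The list median was 0.06 against -0.02 for all genes. FGF18, a secreted ligand that acts on cartilage and bone, had 54.3, 56.5 and 77.2 in controls and 188, 175 and 143 with the miR-10b decoy. All decoy arrays lay above all controls, a 2.54-fold rise (log2 difference 1.34, SE 0.16; limma, adjusted p = 6.78e-05), and 4 of its 6 probe sets rose. FGF13, an intracellular family member that acts on sodium channels and not on FGF receptors, had -0.21 (adjusted p = 0.0373). That call ended in 12 of 18 alternatives (adjusted p from 0.0506 to 0.254). Among them were the values as deposited, centring, genes averaged over probe sets, the fit of every probe set, no intensity trend and no moderation. The call also ended on leaving out control replicate 2 or 3 or miR-10b decoy replicate 1 or 2. FGF13 had a single probe set, so averaging and the fit of every probe set left its difference at -0.21. With the mean of all its probe sets the log2 difference of FGF18 was 0.89 (adjusted p = 0.00739).

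Co-receptors and carriers split, 4 of 15 being higher and 3 lower (46.7% passing, against 33.9% of all genes), with a median of 0.01. The higher genes numbered 2 without miR-10b decoy replicate 1 and 2 with the values as deposited. The membrane heparan sulfate proteoglycan syndecan 2 (SDC2) fell from 526 ± 16.9 to 283 ± 19.5 (SD, n = 3; log2 difference -0.88, SE 0.08, limma adjusted p = 1.19e-05), while syndecan 4 (SDC4) rose from 2033 ± 31.0 to 2701 ± 17.6 (log2 difference 0.41). The SDC4 call ended with the values as deposited (adjusted p = 0.126). FLRT2, from a family of membrane proteins that bind FGF receptors, rose from 929 ± 94.9 to 1740 ± 82.7 (log2 difference 0.90, adjusted p = 6.53e-06). Averaged over their probe sets, SDC2 and FLRT2 had log2 differences of -0.56 and 0.59 and still passed. The glypican GPC6 fell by 0.64 on the log2 scale (adjusted p = 1.99e-04). Also past the threshold, and named after their values were seen, were GPC1 at 0.29, the FGF-binding protein FGFBP1 at -0.76 and SDC3. SDC3 had a control mean of 13.0, under the filter level, and a decoy mean of 49.2, so it was tested only because of its decoy arrays and its difference is no support for the count. For each of these 7 genes the arrays of the groups did not overlap, as for 46.4% of all tested genes. The 7 were named because they passed, so this lack of overlap adds no support.

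Of 17 enzymes that build or trim heparan sulfate 6 were lower and 2 higher (47.1% passing, against 33.9% of all genes, of which 17.3% were lower), with a median of -0.28 against -0.02 for all genes. Among the lower ones were XYLT1, which starts the chain, at -0.36 (adjusted p = 2.79e-04), the polymerase subunit EXT2 at -0.51 (adjusted p = 6.47e-04) and EXTL2 at -0.31 (adjusted p = 0.00405, all by limma). EXT1, EXTL3 and the sulfotransferase NDST1, named after their values were seen, were the other lower genes. The sulfotransferase HS3ST3B1 rose from 198 ± 21.4 to 492 ± 59.2 (SD, n = 3), a 2.43-fold rise (log2 difference 1.28, SE 0.11, limma adjusted p = 7.29e-06). Its other 2 probe sets were dim, with folds of 0.991 and 1.08 that did not pass, and the mean of all 3 gave a log2 difference of 0.46 (adjusted p = 0.0289). HS2ST1, named after its value was seen, was the other higher gene, at 0.44. The lower genes numbered 8 with the values as deposited and 6 after centring. They numbered 4 with the mean of all probe sets, 4 without moderation and 4 when control replicate 1 was left out.

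Of 17 signal transducers 1 was higher and 2 were lower (17.6% passing, against 33.9% of all genes), with a median of -0.004. CBL, a ubiquitin ligase that turns over receptors, rose from 257 ± 14.6 to 383 ± 39.4 (SD, n = 3; log2 difference 0.56, limma adjusted p = 7.91e-04), though 1 of its 5 probe sets had the opposite sign and the call ended with the mean of all of them (adjusted p = 0.675). The adaptor SHC1 and the kinase MAP2K1 had small falls, of -0.18 and -0.17, and the call of MAP2K1 ended in 11 of 18 alternatives (adjusted p from 0.06 to 0.365), among them centring, the values as deposited, no intensity trend and leaving out any 1 of the 6 arrays. That of SHC1 ended with the mean of its probe sets (adjusted p = 0.295), with no intensity trend (adjusted p = 0.0937) and without moderation (adjusted p = 0.0516), and with the values as deposited its difference was -0.34. After centring 4 transducers were higher and 1 lower.

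Of 12 feedback inhibitors 2 were higher and 0 lower by limma (16.7% passing, against 33.9% of all genes), with a median of 0.13. At an unadjusted p under 0.05, 5 were higher and 2 lower. The ERK phosphatase DUSP4 read 1007, 1101 and 998 in controls and 1466, 1429 and 1531 with the miR-10b decoy (log2 difference 0.51, SE 0.06; limma, adjusted p = 8.48e-05), and its 3 probe sets all rose. SPRED3 was higher at 0.58 (adjusted p = 0.0136), which ended with the values as deposited (adjusted p = 0.057) and without moderation (adjusted p = 0.0783). By limma DUSP6 at 0.17 (adjusted p = 0.0825), SPRY2 at -0.17 (adjusted p = 0.0865) and SPRY4 at -0.25 (adjusted p = 0.0713) did not pass, each with overlapping groups. Nor did DUSP5 at 0.23 (adjusted p = 0.0796) and SPRED2 at 0.25 (adjusted p = 0.0789). Their groups did not overlap, as for 46.4% of all tested genes. All 5 were named after their values were seen. The count of higher genes was 1 with the values as deposited and 5 after centring.

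Transcription factors and immediate early genes downstream of ERK went both ways, 5 of 13 higher and 3 lower, with a median of -0.002. Thus 61.5% passed, against 33.9% of all genes, of which 16.6% were higher and 17.3% lower. EGR3 fell from 209 ± 5.61 to 99.3 ± 12.3 (SD, n = 3; log2 difference -1.03, SE 0.11, limma adjusted p = 4.73e-05). MYC rose from 358 ± 31.5 to 502 ± 43.9 (log2 difference 0.48, adjusted p = 0.00187), the lipid kinase SPHK1 by 0.51 and PHLDA1 by 0.35, the last not with the values as deposited (adjusted p = 0.249) and at 0.62 with the mean of its probe sets. IER2 and IER3 were the other higher genes, at 0.19 each, and EGR1 and ETV1 the other lower ones, at -0.28 and -0.21, all 4 named after their values were seen. With the values as deposited 2 were higher and 2 lower, where 26.4% of all genes passed. Without moderation 3 were higher and 1 lower, so the share of this short list moved with the setting.

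**Figure D3:**
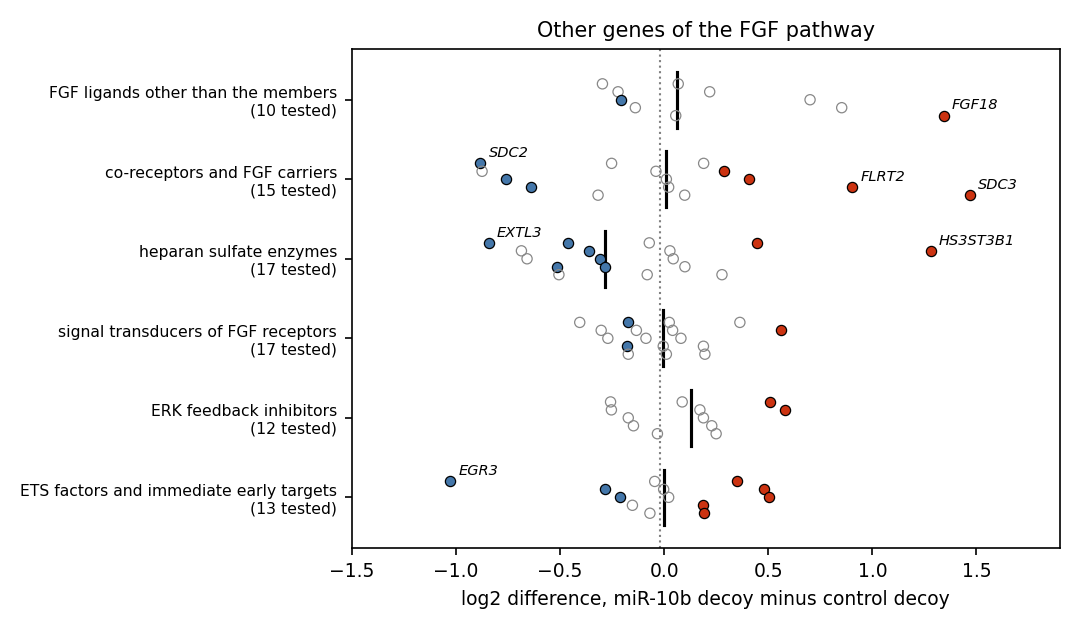
Log2 difference for each tested gene of the 6 lists, with red for genes that passed as higher, blue for genes that passed as lower and open circles for the rest. Black bars are list medians and the dotted line is the median of all tested genes, -0.02. Of the 84 genes, 15 passed in each direction, and names mark passing genes beyond 0.8 in size.

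Among the 5 genes whose pattern over the 6 arrays was most like that of FGF2 were the thioredoxin reductase TXNRD1 (Pearson r = 0.9991), the ubiquitin-conjugating enzyme UBE2J2 (0.9990), LYSET (0.9988) and the stress cytokine GDF15 (0.9988). These 6 arrays fall into 2 groups, so any gene that differs cleanly between them correlates highly, and 1014 genes had r above 0.95 with FGF2. For NUDT6 the closest were ASGR1 (0.9980), RIPOR2 (0.9965), BEGAIN (0.9851), POLR1F (0.9841) and ZNF557 (0.9829), with 27 genes above 0.95, several of them dim.

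Markers of cell types were read on the same arrays. The mesenchymal protein vimentin (VIM) was bright in all arrays, at 9937 ± 103 and 9932 ± 100.1 (SD, n = 3), but the astrocyte markers GFAP, S100B, AQP4 and FABP7 lay under the filter level on average. So did OLIG2, which read 0.81 to 7.80 in controls and 19.7 to 29.95 with the miR-10b decoy and was not tested. Of 11 glial markers 6 were tested, with 2 higher and 1 lower (among all genes 16.6% were higher and 17.3% lower, here and for the lists that follow). The glutamate transporters SLC1A3 and SLC1A2 were higher, 1.66-fold and 1.52-fold, and the intermediate filament NES was lower, at 0.766-fold, all 3 named after their values were seen. The summed signal of the list ran from 10460 to 10710 in controls and from 10480 to 10620 with the decoy, nearly all of it VIM, and without VIM from 634.8 to 696 and from 597.8 to 654.2. Of 8 neuronal markers 4 were tested, 3 being lower. They summed to between 4616 and 4855 in controls and between 3875 and 4039 with the miR-10b decoy, most of it the tubulin TUBB3. Without TUBB3 the sums ran from 1052 to 1122 and from 687.6 to 710.7. Fibroblast and pericyte markers summed to between 8504 and 9044 in controls and between 7204 and 7259 with the decoy, 3 of 8 being higher (LUM, PDGFRA and DCN) and 1 lower. The lower one, the collagen gene COL1A2, fell from 4984 to 2881 on average, and without it the other 7 summed to between 3601 and 4016 in controls and between 4224 and 4565 with the decoy, so the sum changes direction with this 1 gene. Endothelial markers summed to between 261.6 and 350.8 and between 226 and 232, with 2 of 3 tested lower. Leukocyte markers summed to between 108 and 143 and between 105 and 137, and lung epithelial markers to between 179 and 230 and between 123 and 201, and of their 3 and 2 tested genes 0 passed limma's test, at an adjusted or an unadjusted p under 0.05. The part of these markers in the results was not tested.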

How the data were processed

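The table held one MAS5 signal intensity for each of 54675 probe sets on 6 arrays, deposited by the authors on a linear scale. MAS5 is named in the submitters' processing notes, with its version and scaling not given in the sources here. Detection calls and scan dates were not used here, and the number of arrays limits precision. Array titles gave groups and replicate numbers. Platform annotation gave 1 symbol to 41091 probe sets outside the 62 controls, several to 1801 and none to 11777, and only the first were used.

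Signals were quantile normalised over all probe sets, because the arrays as deposited differed in brightness, and log2(signal + 7) was taken. Each gene was read from its brightest probe set on average, and the dimmest 30 percent of genes were not tested. The groups were compared with limma 3.58.1 in R 4.3.3 (lmFit, eBayes with an intensity trend, two-sided, 7.6 prior and 4 residual degrees of freedom). The script was tested on simulated data. The named genes were the 9 members, up to 4 passing genes of each list with the smallest p, SPRY1 and AFG2A, and the 5 genes most correlated with FGF2 and with NUDT6. Members and lists were chosen with earlier results of these data known. Alternatives covered scaling, offset, filter, probe sets, variance model, replicate number and each array left out. Of the genes most like FGF2 in pattern, 1 is not reported here.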

Additional observations from a re-analysis of the deposited data

How the results depend on the processing

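FGF2 passed in the higher direction in all 18 alternatives, at log2 differences from 1.99 to 2.20 (adjusted p at most 0.00735), and NUDT6 passed in none (0.14 to 0.48, adjusted p from 0.0601 to 0.616). FGF2 minus NUDT6 lay between 1.67 and 1.98 in 12 alternatives. Centring cannot move a difference within an array, so its 1.82 repeats that of the values as deposited and is no separate check. FGFR1 passed at 0.26 after centring on array medians and in no other of its 18. The sign of FGF1 turned to -0.082 and that of SPRY1 to 0.015 with the mean of all probe sets, and that of FGF5 to 0.17 without miR-10b decoy replicate 1, whose removal gave the highest of its values from -0.33 to 0.17 with 1 array left out. None of these 3 had passed. FGFR2 and FGFRL1 passed in none of their 16 and 17.

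With the values as deposited, 1094 genes were higher, among them 8 of the pathway lists, against 22 after centring. The mean of all probe sets gave 1479 higher and 1566 lower genes, and variances without moderation 1456 and 1375, with 8 pathway genes lower. The cause was not tested. The values as deposited without the brightest array, control replicate 3, were added after seeing the data. Same-numbered arrays of the groups did not deviate together (r from -0.03 to 0.03), so no pairing by replicate number was seen. So few arrays cannot exclude one. With the replicate number as a block 2225 genes were higher and 2328 lower. FGF2 then had adjusted p = 1.14e-07 by limma, and the calls of FGF13 and MAP2K1 ended. Dim genes such as FGFR3 and FGFR4 are limited by signal over background.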
